A study of Homo sapiens with 18 samples.

Results

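Silencing of PBRM1 in BT-549 cells was profiled in 6 of the 18 RNA-seq libraries of the series, chosen by their labels, and is described here outside the interferon (IFN) response. BT-549 is a triple-negative breast cancer line, that is, one without the estrogen and progesterone receptors and without HER2 amplification, and it has a mesenchymal phenotype. The PBRM1shRNA group stably carried a short hairpin RNA against PBRM1, its control group stably carried a control hairpin, and both were puromycin resistant and had 3 libraries each. A separate pair of BT-549 groups, with a stable IRF1 hairpin or a control hairpin and 3 libraries each, is used only for side-by-side values. The labels name a single PBRM1 hairpin and do not say whether the silenced cells were a clone or a pool. The RNA came from cultures run in triplicate, so p-values measure spread between these cultures. For values as deposited, that spread is the one typical of genes of a level and not each gene's own. Of 10639 genes tested, 10393 lay outside a list of 375 IFN-response symbols that was set aside.

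PBRM1, also called BAF180, carries several bromodomains, which bind acetylated lysines on histones, and is a defining subunit of PBAF, one of the SWI/SNF complexes that move nucleosomes along DNA. PBAF is set apart from the other SWI/SNF assemblies by PBRM1, ARID2, BRD7 and PHF10. Loss of a remodeler can raise some genes and lower others, since nucleosome position affects the access of activators and repressors alike. PBRM1 is best known as a tumor suppressor of clear cell kidney cancer, and it also takes part in DNA repair and in cohesion of sister chromatids.

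Values are in TPM, a level corrected for transcript length and scaled to the same total in every library. A fold is the difference between the group means of log2(TPM + 1), PBRM1shRNA minus control, given with its standard error (SE). As deposited, that SE reflects the spread typical of genes of that level, not the spread of the gene's own libraries. Adding 1 makes folds of genes with low TPM too small. A gene was called when its adjusted p in limma was under 0.05 and its fold exceeded 1 in size. Genes were tested if at least 3 libraries reached 1 TPM. Short noncoding RNAs took 75.6% to 79.2% of all TPM in each library, although they made up only 9.84% of the authors' mean normalized counts, because TPM divides by length. The comparison was therefore repeated after removing them and rescaling each library to its former total, which is called the rescaled comparison below.

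The targeted gene answered to the hairpin. PBRM1 (chromosome 3, 52545352 to 52685917, minus strand, GRCh38) stood at 12.3, 10.7 and 12.6 TPM in control libraries a, b and c and at 3.22, 2.69 and 2.95 TPM in PBRM1shRNA libraries 1, 2 and 3. The groups did not overlap, and the mean was 4.02 times lower with the hairpin (11.9 ± 1.02 against 2.96 ± 0.266 TPM, SD, n = 3), a fold of -1.70 ± 0.088. In the rescaled comparison the fold of PBRM1 was -2.01 ± 0.054. MUC1, the transmembrane mucin silenced in another experiment of the series, fell from 27.5 ± 2.85 to 18.5 ± 1.2 TPM (-0.54 ± 0.087). Between 10057 and 10761 genes reached 1 TPM per library, libraries of the same group correlated across genes at 0.9963 to 0.9982, and libraries of different groups at 0.9415 to 0.9456. All 10 mesenchymal markers fixed for BT-549 were detected, with a summed level of 1406 to 1621 TPM and none at 0. Luminal markers summed to 10.4 to 11.9 TPM in control and 7.72 to 8.87 TPM in silenced libraries, and erythroid markers to at most 0.0542 TPM.

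Outside the IFN list, 107 genes were called higher (1.03% of those tested) and 270 called lower (2.60%). Adjusted p alone was passed by 2602 genes that rose (25.0%) and 3499 that fell (33.7%), and the libraries of the groups did not overlap for 61.3%. With the IFN list counted in, 108 genes were called higher (1.02%) and 411 lower (3.86%), and 24.6% rose and 34.8% fell by adjusted p. In the rescaled comparison 12438 genes outside the list were tested, with 120 called higher (0.965%) and 718 called lower (5.77%), while 22.2% rose and 50.1% fell by adjusted p. With the IFN list counted in, 0.952% were called higher and 7.04% lower. Both comparisons called 91 of the same genes higher and 269 of the same genes lower. The median fold of all tested genes was -0.05 as deposited and -0.17 after rescaling, so folds on the rescaled scale sit lower by about that shift. With rescaled folds taken relative to that median, 204 genes outside the list were called higher and 511 lower. The plot of the folds on both scales sets the deposited fold of each gene against its rescaled fold. Rescaling raises TPM, so the added 1 holds down the folds of low genes less, but the plot does not mark level.

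**Figure D1:**
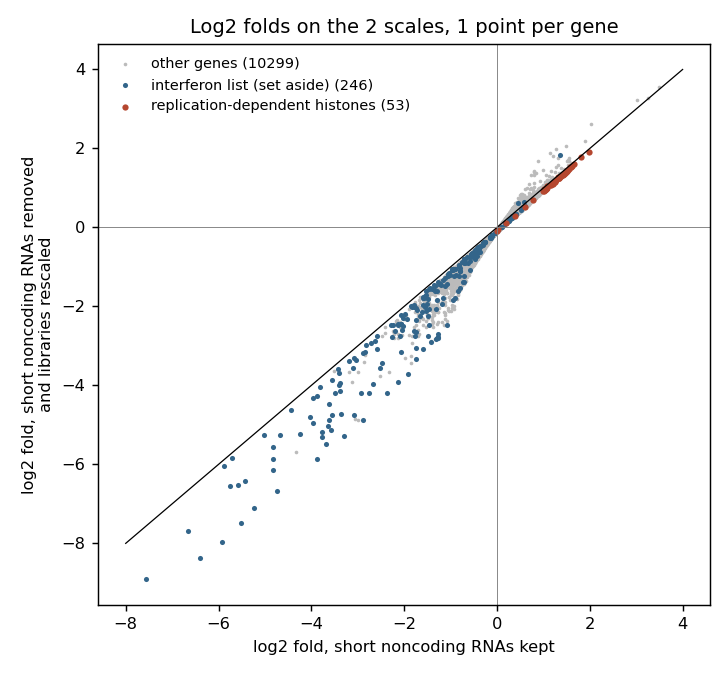
Log2 fold of each gene tested in both comparisons, with short noncoding RNAs kept (horizontal axis) and removed with libraries rescaled (vertical axis). Of the 53 replication-dependent histones, 51 rose, HIST3H2A lies at -0.01 and HIST2H2BC at 0.03 with short RNAs kept, the 246 genes of the IFN list that was set aside reach the lowest values, and the black line marks equal folds.

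Among the 107 genes called higher, 46 were replication-dependent histone genes. These genes lie in clusters, are transcribed in S phase to package newly copied DNA, and make mRNAs whose 3′ end is a stem-loop rather than a poly(A) tail. Their promoters are known for a TATA box and for CCAAT boxes bound by NF-Y. Sequences before the annotated starts of an H3, an H2A and an H1 gene among the named genes are shown because 51 of the 53 tested members rose. They come from RefSeq (GRCh38.p14), run 5′ to 3′ on the strand of the gene up to the base before its start, and have CCAAT (or ATTGG, the same motif on the other strand) and TATAAA in capitals.
HIST1H3B (H3C2), chr6:26032100-26032349, minus strand: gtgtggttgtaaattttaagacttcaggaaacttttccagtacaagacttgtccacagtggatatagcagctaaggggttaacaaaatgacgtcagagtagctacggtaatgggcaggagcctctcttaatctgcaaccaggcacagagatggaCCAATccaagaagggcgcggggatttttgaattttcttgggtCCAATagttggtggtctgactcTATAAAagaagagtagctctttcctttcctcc
HIST1H2AG (H2AC11), chr6:27132793-27133042, plus strand: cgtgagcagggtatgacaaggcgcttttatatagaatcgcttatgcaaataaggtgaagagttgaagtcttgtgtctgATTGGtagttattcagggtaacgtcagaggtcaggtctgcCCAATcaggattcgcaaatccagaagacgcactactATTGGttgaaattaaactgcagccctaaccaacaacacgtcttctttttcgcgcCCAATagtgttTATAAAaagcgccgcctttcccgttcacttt
HIST1H1B (H1-5), chr6:27867589-27867838, minus strand: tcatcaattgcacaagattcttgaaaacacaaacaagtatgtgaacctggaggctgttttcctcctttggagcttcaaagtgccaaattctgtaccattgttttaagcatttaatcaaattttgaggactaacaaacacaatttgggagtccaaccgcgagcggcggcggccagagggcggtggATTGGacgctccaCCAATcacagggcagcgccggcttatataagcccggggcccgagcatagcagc

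In HIST1H3B the TATAAA starts 32 bases before the start of transcription and in HIST1H2AG 31 bases before it. HIST1H1B holds no TATAAA in these letters, with CCAAT once on each strand. Of the 53 histone genes tested, 43 had a promoter of 300 bases in the RefSeq table. CCAAT on either strand was found in 36 of these (83.7%), against 37.3% of 8687 tested genes with an entry and 34.6% of all 35116 promoters. TATAAA on either strand was found in 29 (67.4%), against 5.2% of tested genes. The other genes called higher held CCAAT in 40.4% and TATAAA in 6.4% of 47 promoters, and the genes called lower outside the IFN list in 32.2% and 11.2% of 205. A match describes letters and does not show that a factor is bound.

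HIST1H3B, an H3 gene, stood at 92.6, 99.5 and 103 TPM in the control libraries and at 391, 370 and 417 TPM in the PBRM1shRNA libraries. The groups were far apart, with a mean 4.0 times higher (fold 1.99 ± 0.085). HIST1H2AG went from 102, 94.6 and 100 TPM to 308, 283 and 314 TPM (1.60 ± 0.085), and HIST1H1B, a linker histone, from 150, 156 and 153 TPM to 407, 452 and 453 TPM (1.51 ± 0.085). Every PBRM1shRNA library was above every control library for these 3 genes, which was a condition for naming them.

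The rise covered all 5 classes. Of 53 genes tested, 51 rose, 0 fell and 51 had groups that did not overlap, with a median fold of 1.32 against -0.05 for all tested genes. Of all tested genes 24.6% rose, 34.8% fell and 62.0% had groups that did not overlap. By class, 4 of 4 H1 genes, 12 of 13 H2A, 16 of 17 H2B, 10 of 10 H3 and 9 of 9 H4 genes rose, with median folds of 1.11, 1.26, 1.33, 1.39 and 1.16. In the rescaled comparison 50 of 58 rose and 2 fell, with a median of 1.18. Summed over the 74 histone symbols listed, the level was 4505 to 4842 TPM in control and 11123 to 11826 TPM in PBRM1shRNA libraries. After rescaling the sums were 20322 to 21708 and 47994 to 48923 TPM. The genes were chosen by symbol, and their rise was known from earlier work on these data, so the counts are a description.

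The family was not uniform. HIST3H2A, which lies outside the main cluster on chromosome 6, stood at 36.5 ± 3.23 and 36.1 ± 2.32 TPM (-0.01 ± 0.087), and HIST2H2BC at 2.03 ± 0.341 and 2.13 ± 0.596 TPM (0.03 ± 0.080). The histone symbols were not screened for pseudogenes, so HIST2H2BC or other members may not be active genes. HIST1H1D rose by the smallest amount (126 ± 2.52 to 144 ± 1.87 TPM, 0.19 ± 0.085, limma adjusted p = 0.0435), and after rescaling it no longer passed the test (0.10 ± 0.049, limma adjusted p = 0.0721). HIST3H2BB (0.39 ± 0.086) and HIST1H2BM (0.60 ± 0.087) were the next smallest. Histone genes are near-identical within a class, and reads may have been split among copies, so the order of single members is uncertain.

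The library kit named by the labels selects polyadenylated mRNA, and most histone mRNAs lack a poly(A) tail, so their capture can differ from that of other mRNAs. The part of capture in their rise was not tested. Among short noncoding RNAs, most of which also lack that tail, of 41 tested 12 rose and 20 fell, with a median fold of -0.18 and a range from -1.02 to 1.08. Their share of TPM was 76.6% to 79.2% in control and 75.6% to 77.3% in PBRM1shRNA libraries.

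**Figure D2:**
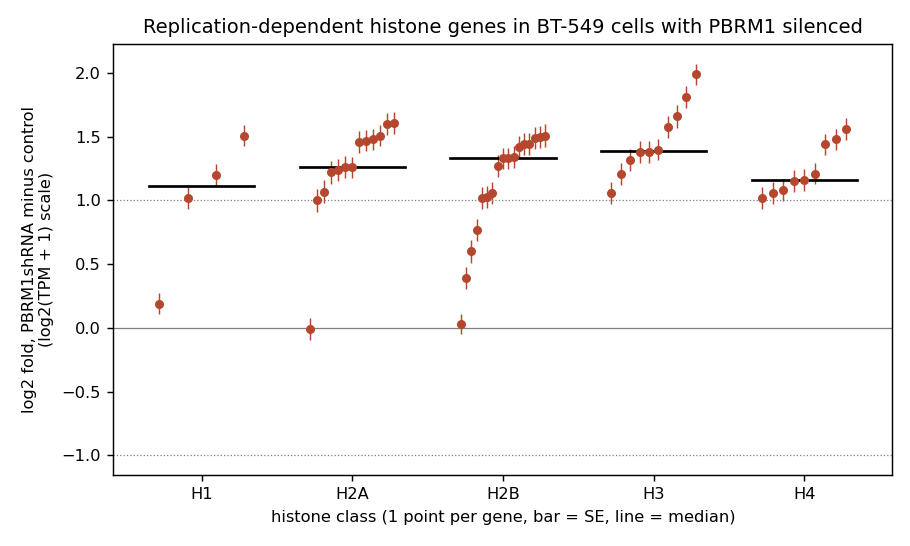
Log2 fold (vertical axis, log2(TPM + 1) scale) of each tested replication-dependent histone gene by class, with SE bars and the class median as a line. The classes have medians from 1.11 to 1.39, with HIST1H1D, HIST3H2A and HIST2H2BC at 0.19, -0.01 and 0.03.

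Replacement histones, which have polyadenylated mRNAs and are made outside S phase as well, moved both ways. H1FX, a replacement linker histone, fell from 98.8 ± 2.80 to 51.3 ± 0.646 TPM (-0.93 ± 0.086). H2AFV and H2AFZ, which encode the H2A.Z proteins found at promoters, rose with folds of 0.88 ± 0.087 and 0.85 ± 0.085. Of 9 replacement histones tested, 5 rose and 4 fell. H1FX thus fell while the 4 tested replication-dependent H1 genes rose. After rescaling 5 such H1 genes could be tested, of which 3 rose and 1 fell. Of 15 genes that supply or process histones, 6 rose and 3 fell (5 fell with a replicate block, 6 after rescaling). ASF1B, a histone chaperone, rose by 0.64 ± 0.088, while SLBP, which binds the histone stem-loop, had a fold of 0.22 ± 0.088.

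The largest rises outside the histones that both comparisons called began with a pair of simple-epithelium keratins that polymerize with each other. KRT18 (chromosome 12, 52948871 to 52952901, plus strand) stood at 3.05, 2.59 and 2.74 TPM in control and at 33.1, 27.7 and 28.5 TPM in PBRM1shRNA libraries, 10.6 times higher (3.02 ± 0.088). KRT8, its partner, lies next to it on the other strand (52897187 to 52949954) and went from 0.732, 0.737 and 0.875 TPM to 6.51, 6.12 and 6.25 TPM (2.03 ± 0.082). The annotated ends of both genes overlap, and both have processed pseudogenes that can take reads, so their exact levels are uncertain. Of 6 keratins tested, 2 rose and 2 fell (2 and 4 of 7 after rescaling). KRT81, a hair keratin, fell from 3.50 ± 0.558 to 0.876 ± 0.165 TPM (-1.26 ± 0.079) and KRT80 by 0.30 on the log2 scale. The rise was thus in the paired KRT8 and KRT18 and not in keratins at large.

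SORT1 encodes sortilin, which carries cargo from the Golgi to the endosome and lysosome. It went from 1.87, 1.47 and 1.78 TPM to 9.66, 8.30 and 9.15 TPM, 5.29 times higher (1.89 ± 0.086). APLN, the ligand apelin, went from 6.06, 5.36 and 6.26 TPM to 19.2, 20.2 and 19.7 TPM (1.59 ± 0.088). In both, the lowest PBRM1shRNA library was above the highest control library, which was a condition for naming them. Of the 20 largest rises called in both comparisons, 11 were histones, and beside the genes above they were GXYLT1 (1.56), which adds xylose to sugars on NOTCH receptors, TMEM19 (1.55), the metalloprotease ADAMTS12 (1.54), periostin (POSTN, 1.52) and CD83 (1.5), a surface protein best known from dendritic cells. The adjusted p of the 20 rises and 20 falls of largest size was at most 6.3e-65 as deposited and 1.4e-09 after rescaling (limma). The smaller values on the deposited scale come with an infinite prior for the spread, under which each gene takes the spread typical of its level. Under that prior RNR1 and RNR2, the symbols of the mitochondrial ribosomal RNAs, were also called higher. RNR1 stood at 1.22, 52.4 and 24.3 TPM in control and 4.52, 692 and 1123 TPM in PBRM1shRNA libraries, so that its groups overlapped, and it was not called after rescaling (limma adjusted p = 0.0826). Of the 107 genes called higher, 104 had groups without overlap, and of the 270 called lower, 269, against 61.3% of all genes tested outside the IFN list.

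**Figure D3:**
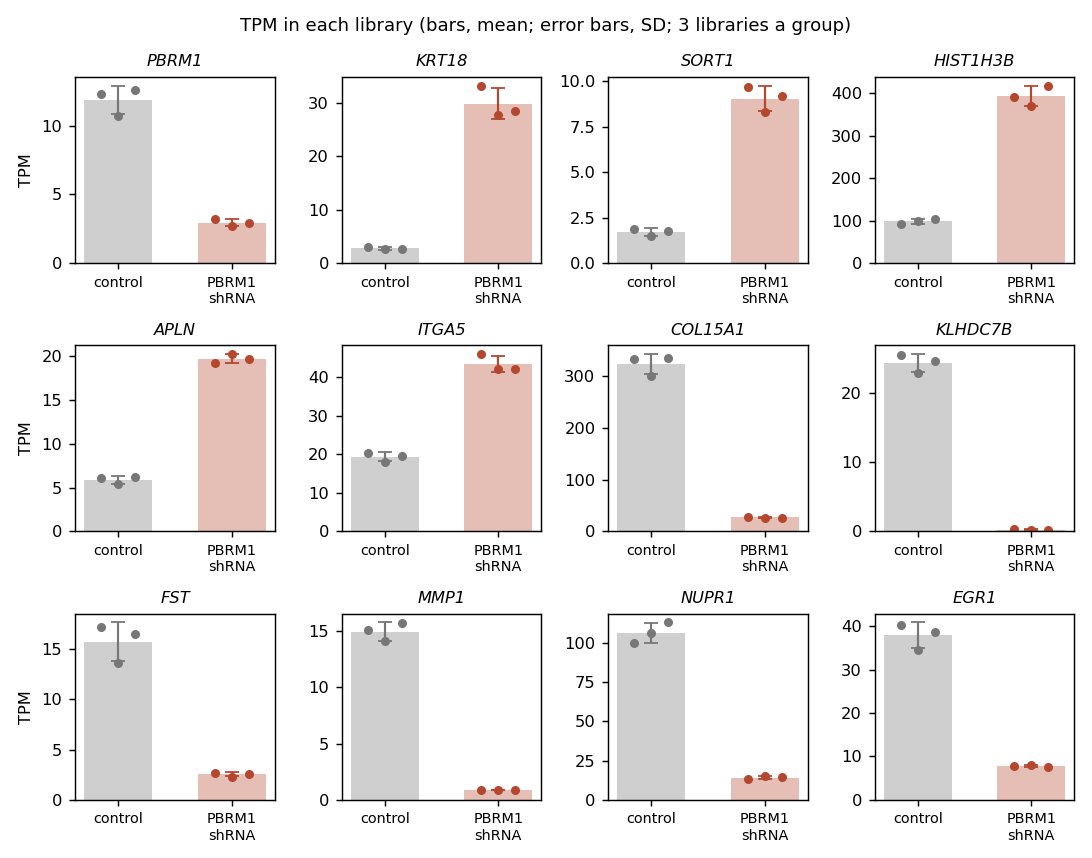
TPM (vertical axes, from 0, a scale of its own per gene) in each library for 12 genes, with control in grey and PBRM1shRNA in red; points are libraries, bars means and error bars SD (n = 3). The groups do not overlap for any of the 12, as in COL15A1 (323 ± 19.5 against 27.3 ± 1.17 TPM). Most of the 12 belong to the 20 largest rises or falls, which were chosen for groups without overlap. For these the separation follows from the choice.

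Falls were led by KLHDC7B on chromosome 22 (50545891 to 50551023, plus strand). It stood at 25.5, 23.0 and 24.7 TPM in control and at 0.304, 0.259 and 0.246 TPM in PBRM1shRNA libraries, 90.4 times lower (-4.32 ± 0.087). Because the silenced level is far below 1 TPM, the log2 fold understates the ratio, and after rescaling it was -5.69 ± 0.061. CHRDL1, a secreted antagonist of bone morphogenetic proteins (BMPs), went from 7.95, 7.14 and 8.51 TPM to 0.0439, 0.0812 and 0.0534 TPM (-3.06 ± 0.080). CYTL1, a small secreted protein, fell from 27.4 ± 2.01 to 2.11 ± 0.176 TPM (-3.19 ± 0.088). The 20 largest falls also include COL15A1, MMP1, AGRN, FST, PCDH1 (a protocadherin), MME (the peptidase neprilysin or CD10), IL26 and CST3 (cystatin C, an inhibitor of cathepsins). PLEKHA4 (-2.84 ± 0.088) and the hypoxia-responsive NDRG1 (-2.22 ± 0.086) were among them as well.

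Collagen mRNAs moved both ways. COL15A1 encodes a collagen of the outer face of basement membranes and lies on chromosome 9 (98943179 to 99070792, plus strand). It stood at 334, 301 and 335 TPM in control and at 28.7, 26.5 and 26.8 TPM in PBRM1shRNA libraries, 11.8 times lower (-3.52 ± 0.086). Of 17 collagen genes tested, 10 fell, 8 of them called, and 3 rose, with a median fold of -0.47 (10 and 7 with median-ratio scaling, median -0.35). The falls included the basement membrane chains COL4A2 (115 ± 6.77 to 31.2 ± 1.0 TPM, -1.84 ± 0.086) and COL4A1 (72.7 ± 5.30 to 26.6 ± 1.34 TPM, -1.41 ± 0.087), COL6A3 (-1.49 ± 0.077), COL6A2 (-1.08), COL6A1 (-1.06), COL3A1 (-1.43 ± 0.087) and COL12A1 (-1.04). Both chains of fibrillar type I collagen rose, COL1A1 from 119 ± 5.40 to 195 ± 3.22 TPM (0.71 ± 0.085) and COL1A2 from 270 ± 18.4 to 358 ± 9.37 TPM (0.41 ± 0.084). After rescaling these genes kept their directions. COL1A1, COL1A2, COL4A1, COL6A1, COL6A2 and COL12A1 were named after their values were seen.

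COL4A1 and COL4A2 start head to head on opposite strands of chromosome 13, so a single stretch of DNA serves both. It is shown here, from RefSeq (GRCh38.p14), because the genes fell together. The 126 bases lie between the annotated starts, and capitals mark CCAAT and GGGCGG, the core of a GC box.
COL4A1 and COL4A2, chr13:110307158-110307283, plus strand (the strand of COL4A2): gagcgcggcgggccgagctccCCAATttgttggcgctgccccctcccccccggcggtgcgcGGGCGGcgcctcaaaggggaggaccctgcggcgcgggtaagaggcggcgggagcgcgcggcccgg

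The stretch is 80.2% G or C and holds no TATAAA. On either strand, the motif GGGCGG was in 72.3% of the promoters of tested genes, and in 70.7% of the 205 promoters of genes called lower outside the IFN list.

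Integrins, the main receptors for matrix, had more members higher than lower. Of 11 integrins tested, 7 rose and 2 fell (4 fell with a replicate block, and 7 of 12 rose and 5 fell after rescaling), with a median of 0.34. ITGA5, the fibronectin receptor subunit, stood at 20.4, 18.1 and 19.5 TPM in control and 45.9, 42.2 and 42.0 TPM in PBRM1shRNA libraries (1.13 ± 0.087). ITGAV (1.06 ± 0.087), which pairs with several beta subunits, and ITGA4 (1.06 ± 0.087) were called as well, and ITGA6, a laminin receptor subunit, rose by 0.75 ± 0.087. FN1, the fibronectin that ITGA5 binds, fell from 37.0 ± 3.43 to 13.9 ± 1.45 TPM (-1.35 ± 0.087). Of 6 laminin chains tested, 4 fell and 1 rose (2 rose with a replicate block), with LAMA3 (-1.03 ± 0.081) called, LAMA4 (-0.84 ± 0.070) and LAMB2 (-0.82 ± 0.087).

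**Figure D4:**
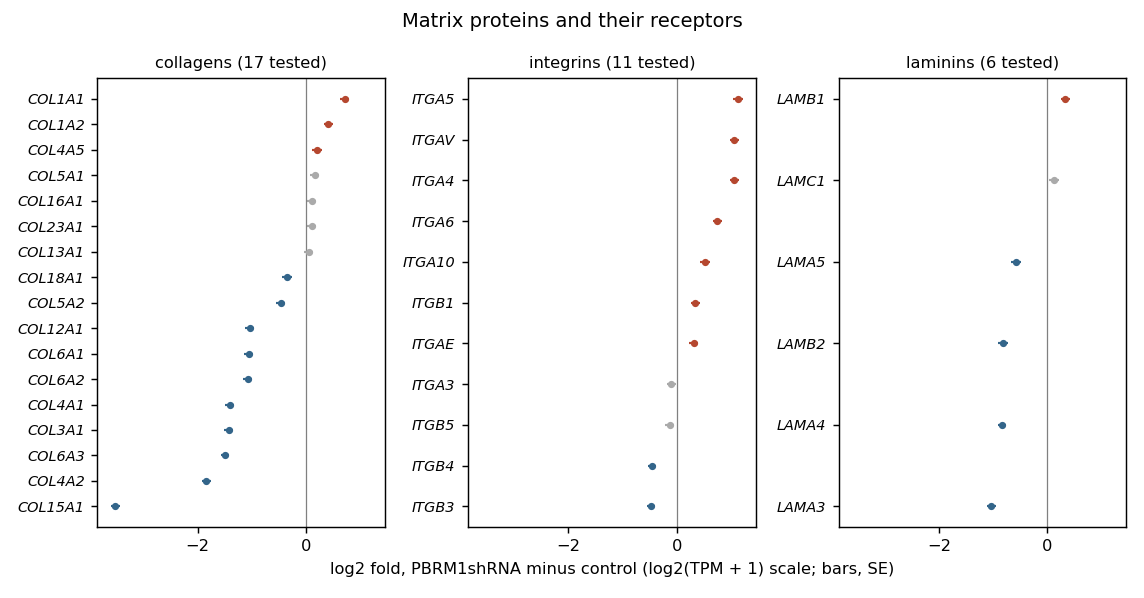
Log2 fold (horizontal axis, log2(TPM + 1) scale, bars SE) of the tested collagens, integrins and laminins; red points rose, blue points fell and grey points did not pass adjusted p under 0.05. COL15A1 is lowest at -3.52, COL1A1 is the highest collagen at 0.71, and ITGA5 is the highest integrin at 1.13.

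Of 32 matrix glycoproteins and matrix-bound growth factors, 21 fell, 5 of them called, and 3 rose, with a median of -0.48. After rescaling 28 of 35 fell, 12 of them called, and the median was -0.77. AGRN encodes agrin, a heparan sulfate proteoglycan of basement membranes, and stood at 29.5, 26.0 and 28.8 TPM in control and 4.31, 4.05 and 4.23 TPM in PBRM1shRNA libraries (-2.48 ± 0.088). Periostin, a matricellular protein, rose from 4.29 ± 0.328 to 14.2 ± 0.932 TPM, and the fibulin EFEMP1 fell by 1.12 on the log2 scale. Metalloproteases and their inhibitors moved both ways, with 10 of 21 higher and 8 lower and a median of 0.01. The interstitial collagenase MMP1 went from 15.1, 14.1 and 15.7 TPM to 0.853, 0.823 and 0.835 TPM (-3.12 ± 0.087). MMP2 (-1.39 ± 0.077) and ADAMTS15 (-1.46 ± 0.088) fell too, while ADAMTS12 rose from 2.33 ± 0.279 to 8.72 ± 0.720 TPM. All 7 tested serpins fell, among them SERPINA3 (-1.56 ± 0.087), SERPINB8 (-1.47 ± 0.083) and SERPINH1 (399 ± 20.2 to 232 ± 7.85 TPM, -0.78 ± 0.084), a collagen chaperone.

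Genes of the ERK and immediate-early response, which growth factors induce within minutes, were lower nearly throughout. Of 33 tested, 29 fell, 6 of them called, and 1 rose, with a median fold of -0.57 (-0.63 after rescaling). EGR1, a zinc finger factor of this response, stood at 40.4, 34.6 and 38.7 TPM in control and 7.70, 8.0 and 7.60 TPM in PBRM1shRNA libraries (-2.15 ± 0.088). KLF4 (-1.51 ± 0.088), the stress factor ATF3 (-1.25 ± 0.088), the EGF-receptor ligand AREG (2.33 to 0.282 TPM, -1.38 ± 0.073), the ERK phosphatase DUSP6 (-0.96 ± 0.088) and FOS (-0.70 ± 0.077) fell, and JUN fell by 0.26 on the log2 scale. KLF factors shared this direction, with 8 of 11 lower and 0 higher, which includes KLF4 from the list before. Receptor tyrosine kinases, which feed the ERK pathway, had the opposite count: 10 of 16 rose and 0 fell (1 fell with a replicate block, and 3 of 22 after rescaling), led by NTRK3 (0.65 ± 0.082), MET (0.63 ± 0.088) and FGFR1 and FGFR2 (0.44 each), with none called.

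In the NOTCH and Hedgehog list, 5 of 15 rose and 6 fell. HEY1, a transcriptional repressor induced by NOTCH, went from 6.79, 5.43 and 6.6 TPM to 0.195, 0.338 and 0.274 TPM (-2.52 ± 0.080). HES4, a relative of HEY1, fell from 18.1 ± 1.10 to 3.48 ± 0.254 TPM (-2.09 ± 0.088), and the NOTCH ligand JAG1 from 1.59 ± 0.124 to 0.189 ± 0.00950 TPM (-1.12 ± 0.070). HHIP, which binds and blocks Hedgehog ligands, rose (1.06 ± 0.081). In the WNT list 6 of 21 rose and 9 fell, with secreted modulators on both sides: RSPO3, an enhancer of WNT signals, fell by 2.13 on the log2 scale and SFRP2, an antagonist, by 1.73, while the antagonist SFRP1 rose by 0.91 ± 0.087. Among 33 TGF-beta and BMP genes 15 fell and 8 rose. Follistatin (FST), which traps activins, stood at 17.2, 13.6 and 16.5 TPM in control and at 2.66, 2.31 and 2.61 TPM in PBRM1shRNA libraries (-2.25 ± 0.088). The receptors of TGF-beta moved apart, TGFBR2 from 5.30 ± 0.276 to 11.3 ± 0.195 TPM (0.97 ± 0.088) and TGFBR1 from 25.5 ± 2.55 to 12.9 ± 0.712 TPM (-0.93 ± 0.088). The split of these 3 lists between higher and lower moved with the scaling (7 and 6, 12 and 9, and 14 and 14 with median-ratio scaling), so only the named members are read here.

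Transcription factors of the mesenchymal state were lower in 9 of 10 tested, with none higher and none called: PRRX1 (-0.91 ± 0.088), FOXC1 (-0.87 ± 0.088), SNAI2 (-0.74 ± 0.088) and ZEB1 (15 ± 1.40 to 9.63 ± 0.236 TPM, -0.59 ± 0.088). Of the 10 mesenchymal markers, 5 rose, among them N-cadherin (CDH2, 0.45 ± 0.087), and 3 fell, among them SPARC (-0.45 ± 0.084). Contractile genes were mixed, 9 of 21 higher and 6 lower (8 and 8 with quantile scaling). ACTA2, the smooth muscle actin, fell from 6.87 ± 0.460 to 0.904 ± 0.0987 TPM (-2.05 ± 0.083), with CSRP1 (-1.44 ± 0.088) and the kinase MYLK (-1.37 ± 0.072). Higher KRT8 and KRT18 thus stood beside lower mesenchymal factors and higher CDH2, while luminal markers were low and did not rise. After rescaling all 5 luminal markers tested fell, 3 of them called, with a median of -1.01. As deposited only 2 could be tested, of which 1 fell and 0 rose. IGF-binding proteins fell in 4 of 6, with IGFBP4 (78.2 to 22.3 TPM, -1.77 ± 0.087), IGFBP6 (-1.70 ± 0.083) and IGFBP7 (-1.10 ± 0.087), and IGFBP3 rose (0.66 ± 0.086).

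Of 28 ATF4 targets, genes of the integrated stress response, 16 fell and 4 rose (16 and 8 with median-ratio scaling). NUPR1, a stress-induced chromatin protein, stood at 99.8, 106 and 113 TPM in control and 13.0, 15 and 14.5 TPM in PBRM1shRNA libraries (-2.82 ± 0.087). DDIT3, or CHOP, fell from 69.1 to 24.0 TPM (-1.49 ± 0.087), and the eIF2 phosphatase subunit PPP1R15A (-1.31 ± 0.088) and FGF21 (-1.26 ± 0.073) fell with it. Of 34 hypoxia and glycolysis genes 17 fell and 6 rose. NDRG1, the carbonic anhydrases CA9 (6.86 to 1.41 TPM, -1.70 ± 0.085) and CA12 (-1.28 ± 0.078) and the angiogenic factor VEGFA (66.8 to 27.5 TPM, -1.25 ± 0.087) were called. Of 29 NRF2 and glutathione genes 15 fell and 6 rose (15 and 11 with median-ratio scaling), with AKR1C1 (-1.27 ± 0.071), OSGIN1 (-1.14 ± 0.074) and HMOX1 (-1.0 ± 0.087). Called lower among p53 targets were PMAIP1 or NOXA (-1.46 ± 0.088), GADD45A (-1.30 ± 0.088) and PHLDA3 (-1.12 ± 0.079), within a list of 21 in which 9 fell and 5 rose (9 and 10 with median-ratio scaling).

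Of 5 genes tested in a list of metal-binding metallothioneins and zinc transporters, 3 fell and 1 rose. The 1 that rose was SLC39A10, a zinc transporter (0.43 ± 0.088). MT1E stood at 19.5, 15 and 15.8 TPM in control and 1.25, 0.953 and 1.42 TPM in PBRM1shRNA libraries (-3.0 ± 0.087), and MT1X fell from 205 ± 16.5 to 70.4 ± 5.19 TPM (-1.53 ± 0.086). The MT1 genes are near-identical, so reads may be split among them. SLC30A1, a zinc exporter of the same list that the same metal-sensing factor induces, fell by 0.79 on the log2 scale. Of 43 lysosome and sorting genes 26 fell and 5 rose (26 and 11 with median-ratio scaling), with SORT1 the 1 called higher and the protease CTSF (-1.43 ± 0.088), the cholesterol exporter NPC1 (49.0 to 18.1 TPM, -1.38 ± 0.087) and CTSH (-1.37 ± 0.078) called lower. The leukocyte marker list, fixed as a check on other cell types, summed to 34.3 to 40 TPM in control and 12.8 to 14.2 TPM in silenced libraries, with 8 to 11 of 17 markers at 0. Most of that sum was CD68, a lysosomal protein also made outside leukocytes (33.7 ± 2.56 to 12.9 ± 0.647 TPM). S100A8, the other marker that could be tested, fell from 2.86 to 0.0672 TPM and was 1 of 6 of the 9 tested S100 genes that fell. The part of other cell types in these falls was not tested.

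Genes of cell division were higher as a group, though only 3 were called. Of 59 mitosis genes 56 rose and 1 fell, with a median of 0.70 (0.65 after rescaling), against 25.0% and 33.7% of all genes outside the IFN list. MYBL2, which drives late cell-cycle genes, went from 24.8, 23.0 and 25.6 TPM to 62.8, 58.0 and 59.8 TPM (1.26 ± 0.087). The kinase AURKA (1.01 ± 0.087) and the cyclin CCNA2 (1.0 ± 0.088) were called as deposited but stood at 0.95 each after rescaling, under the limit of 1. Of 50 DNA replication genes 32 rose and 4 fell (36 and 7 with a replicate block, 33 and 10 after rescaling), among them RRM1, a subunit of the reductase that makes deoxynucleotides (0.84 ± 0.088). The median fold of both lists was above 0 under each of the 4 scalings tried. Histone genes had a larger median fold (1.32) than mitosis (0.70) or replication genes (0.29). Cell-cycle inhibitors went both ways: CDKN2C, or p18, rose from 21.4 ± 1.70 to 45.4 ± 2.13 TPM (1.05 ± 0.087) and CDKN2B, or p15, fell from 28.6 to 15.2 TPM (-0.87 ± 0.088). No count of cells or of cells in S phase was analysed here, and in bulk RNA more cells of a phase and more RNA per cell, like fewer cells of a type and less RNA per cell, cannot be told apart.

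Ribosomal and respiratory genes rose by small amounts. Of 81 ribosomal protein genes 66 rose and 1 fell (75 and 2 with a replicate block, 51 and 5 with quantile scaling), with a median of 0.35 (0.17 with quantile scaling), led by RPS21 (0.70 ± 0.083) and RPL5 (0.68 ± 0.084). The 1 that fell was RPL22L1 (14.1 to 8.02 TPM, -0.74 ± 0.088), a paralog that takes the place of RPL22. Of 76 nuclear-encoded respiratory chain genes 54 rose and 1 fell, with a median of 0.34 (53 and 9 of 78 after rescaling), and the 1 that fell was COX7A1 (1.24 to 0.147 TPM, -0.97 ± 0.068), a muscle isoform. Mitochondrial ribosomal genes were closer to even, 24 of 76 higher and 7 lower (38 and 14 with a replicate block, 24 and 23 of 77 after rescaling). None of these 3 lists had a member called higher.

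**Figure D5:**
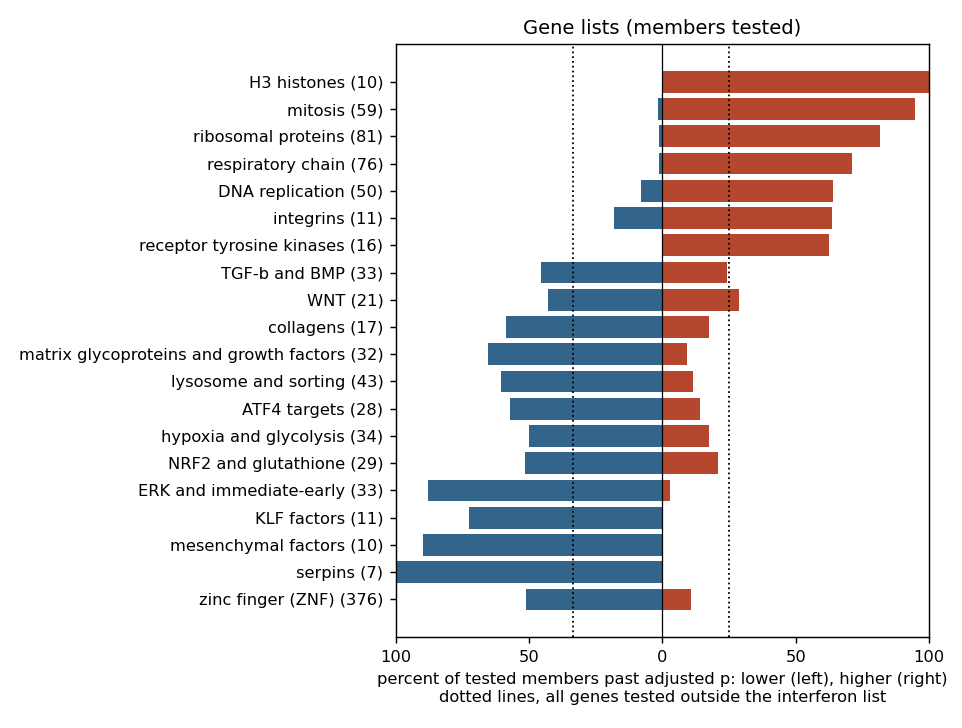
Percent of the tested members of each gene list that rose (right, red) or fell (left, blue) at adjusted p under 0.05, short noncoding RNAs kept; the number tested stands after each name. The dotted lines mark all genes tested outside the IFN list (25.0% higher, 33.7% lower), with mitosis (56 of 59 higher) and serpins (7 of 7 lower) beyond them.

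Within SWI/SNF, PBRM1 was the only 1 of 26 tested subunits called, while 5 rose and 6 fell (13 and 6 with median-ratio scaling). Of the other subunits that mark PBAF, ARID2 rose from 4.80 ± 0.506 to 6.64 ± 0.535 TPM (0.40 ± 0.088), PHF10 fell from 35.4 ± 3.36 to 27.8 ± 1.30 TPM (-0.34 ± 0.087), and BRD7 stood at 16.0 ± 1.22 and 15.7 ± 1.11 TPM (-0.02 ± 0.088). SMARCD3, a subunit of muscle and heart complexes, fell by 0.75 on the log2 scale. Among 54 other chromatin regulators 20 fell and 6 rose with none called (20 and 20 of 55 with median-ratio scaling, 10 rose with a replicate block), among them the deacetylase SIRT1 (-0.70 ± 0.088). Zinc finger (ZNF) genes, of which many repress genes and repeats, fell in 192 and rose in 41 of 376 tested, with a median of -0.19 and only ZNF213 called (-1.11 ± 0.072). More ZNF genes were lower than higher on each of the 4 scalings tried, but the counts came to 123 lower and 106 higher with quantile scaling, with a median of -0.02. Of 14 HOX genes 5 fell and 2 rose (8 and 4 with a replicate block), with none called.

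Of 166 long noncoding RNAs tested, 72 fell and 35 rose, 5 and 4 of them called (47 fell and 59 rose with quantile scaling). Of all genes outside the IFN list 33.7% fell and 25.0% rose, with 2.60% called lower and 1.03% called higher. LINC01133 went from 17.8, 16.5 and 19.8 TPM to 1.56, 1.57 and 1.65 TPM (-2.87 ± 0.088), and LINC00968 from 3.33 ± 0.0693 to 0.331 ± 0.0648 TPM (-1.70 ± 0.076). CELSR3-AS1 was called higher (1.49 ± 0.088), but it stood at 26.3, 17.0 and 0.00 TPM in control libraries and 44.2, 30.4 and 6.70 TPM in silenced ones, and its fold was 0.00 without control library c. After rescaling it did not pass the test (2.07 ± 1.369, limma adjusted p = 0.192). Its mean normalized count over both groups was only 2.

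Within 50000 bases of a gene of the IFN list lay 5 of the 20 largest falls and 4 of the 20 largest rises. Of 10125 tested genes outside the list with a position, 46 overlapped an IFN-list gene and 308 more lay within that distance. The 4 rises were the histone genes HIST1H3B, HIST1H2AB and HIST1H4B, nearest to TRIM38, and HIST2H3D, nearest to FCGR1A. AGRN and HES4 lie on either side of ISG15 on chromosome 1, 5583 and 966 bases from it. KLHDC7B lies 15835 bases from TYMP on chromosome 22, and ODF3B, which overlaps TYMP, fell from 5.12 ± 0.539 to 0.220 ± 0.0791 TPM (-2.33 ± 0.078). LY6E-DT, a divergent transcript that overlaps LY6E as annotated, went from 6.88, 6.69 and 8.30 TPM to 0.0524, 0.00 and 0.0479 TPM (-3.0 ± 0.079). ACTA2 overlaps FAS and C5ORF56 (-1.90) overlaps IRF1. Reads of overlapping genes cannot be assigned with certainty where the strand setting of the counting is not given in the sources used here. By position, 4 of 46 genes that overlap a gene of the IFN list were called lower (8.70%), 10 of 308 within 50000 bases (3.25%) and 248 of 9771 farther away (2.54%), against 2.59% of all 10125 with a position. Called higher were 2 of the 46 (4.35%), 8 of the 308 (2.60%) and 92 of the 9771 (0.942%), against 1.01% of all. Histone genes are counted in these shares. These shares were not tested, and 248 of the 262 genes called lower with a position lay farther than that from IFN genes.

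The same named genes can be set beside the IRF1 experiment, which has its own control libraries. Its values were taken after removing short noncoding RNAs. Of the 20 largest falls with PBRM1 silencing, 15 also fell with the IRF1 hairpin and 2 rose. COL15A1 fell in both (-3.64 ± 0.037 with PBRM1 and -1.71 ± 0.083 with IRF1 silenced, both rescaled), as did LINC01133 (-3.40 ± 0.052 and -1.53 ± 0.056). Of the 20 largest rises, 4 also rose with the IRF1 hairpin and 15 fell. For the histones, with IRF1 silenced 5 of 62 rose and 46 fell, with a median of -0.36, against 50 and 2 of 58 and a median of 1.18 with PBRM1 silenced, both rescaled. KRT18 fell with the IRF1 hairpin (-0.95 ± 0.067), ITGA5 did as well (-1.17 ± 0.046), and KLHDC7B stood at 0.07 ± 0.083. In that experiment 35.3% of all tested genes rose and 29.4% fell on this scale. The experiments were fitted separately, and the difference between them was not tested.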

How the data were processed

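RNA from BT-549 cultures was prepared with a stranded mRNA kit. According to the submitters' processing notes, reads were aligned to GRCh38 with STAR and analysed with DESeq2. The sources used here do not give versions, the annotation, the read counter or its strand setting. The authors deposited TPM per gene and library, in which each library sums to the same total, so read depth is unknown from these values. The deposited mean normalized count (signal), pooled over both groups, was used only for shares and levels. Columns with the authors' own fold changes and p-values were not used. Control columns carry no sample of their own in the labels and were assigned to their group, as control libraries a, b and c.

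Of 25673 genes listed, those with at least 1 TPM in 3 of 6 libraries were tested on log2(TPM + 1) with limma 3.58.1 (R 4.3.3, trended empirical Bayes, two-sided, Benjamini-Hochberg adjustment over all tested genes). The rescaled comparison left out 226 short noncoding RNAs, found by symbol, and applied the filter again. The script was tested on simulated data. Same-numbered libraries deviated together (correlations of 0.455, 0.309 and 0.290, against -0.377 to 0.114 for other pairs). The labels do not say whether equal numbers mark paired cultures. A fit with that number as a block was therefore an alternative. Others were another pseudocount, filter or scaling and each library left out. Positions come from the annotation of the GRCh38 reference, promoters from RefSeq. KRT18 had no promoter entry.

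The genes and lists were chosen with earlier results of these data known. Named genes were PBRM1, MUC1, the 20 largest rises and 20 largest falls called in both comparisons without overlap of the groups, outside the IFN list and not short noncoding RNAs, and up to 4 members per list with the largest fold among those passing adjusted p. Outside that rule, and chosen after their values were seen, are ARID2, BRD7, PHF10, C5ORF56, CD68, COL1A1, COL1A2, COL4A1, COL6A1, COL6A2, COL12A1, DUSP6, FOS, JUN, HIST1H2BM, HIST2H2BC, HIST3H2A, HIST3H2BB, SLBP, RNR1 and RNR2. Some genes that the rule selects are not reported here.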

Additional observations from a re-analysis of the deposited data

Results flagged for a closer look

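For 16 of the 40 named genes the fold with the IRF1 hairpin was opposite in sign to that with the PBRM1 hairpin, with every library of each silenced group on its side of the controls. The difference between the experiments was not tested. The values that follow are log2 folds with the IRF1 hairpin after removing short noncoding RNAs. MT1E and MME, lower with PBRM1 silenced, stood at 0.94 and 0.82. Among genes higher with PBRM1 silenced, KRT18 and KRT8 stood at -0.95 and -0.77, APLN at -0.81, ADAMTS12 at -0.43 and CD83 at -0.26. The other 9 were histone genes. HIST1H3G stood at -0.28, HIST2H3D at -0.58, HIST1H2AB at -0.40, HIST1H2AG at -0.37 and HIST1H3D at -0.40. HIST1H2BI stood at -0.58, HIST1H2AI at -0.45, HIST1H1B at -0.36 and HIST1H2BF at -0.36.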

How the results depend on the processing

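The number of genes called lower depended on how low values were treated. With short noncoding RNAs removed, the 411 genes called lower became 895 (270 to 718 outside the IFN list), with or without the replicate block; 231 of the 514 genes gained in either direction were not tested with the short RNAs kept. With 0.1 added in place of 1 the counts were 646 and 490, and with a filter on a mean of at least 5 TPM they were 229 and 131. Rescaled folds taken relative to the median of all genes, an alternative added after seeing the data, gave 204 in place of 120 genes called higher and 511 in place of 718 called lower outside the list. Leaving out each library in turn gave 97 to 123 genes called higher and 394 to 449 lower, 96 to 122 and 254 to 305 outside the list, and 109 to 125 and 546 to 760 there after rescaling, with PBRM1 at -1.77 to -1.65. The replicate block alone left 108 and 411 genes called (107 and 270 outside the list), and 123 in place of 120 called higher after rescaling outside the list. It moved no list count reported by over 1.5 times beyond those printed with their results, and all 222 named folds kept their side of adjusted p 0.05 under it. Of 3268 alternative values for 222 named folds, 3255 kept direction and side of adjusted p 0.05, 13 lost significance (8 of HIST1H1D, 5 of CELSR3-AS1) and 0 reversed. For the 40 genes of largest change all 595 values kept both. Those 40 were chosen for calls in both comparisons and groups without overlap, and the list members for passing adjusted p. The alternatives use the same libraries, so the stability of named folds follows largely from the choice. The limit of 1 on the fold was less stable: between the deposited and rescaled scales 5 of the 222 lost their call, among them AURKA, CCNA2, CDKN2C and HIST1H1E, and 20 gained one, among them PRRX1, MYL9, TGFBR1 and LAMA4. The TPM give no counts, so no counting error could be attached to low levels.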

Other observations

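Median folds differed little by chromosome, except on chromosome 16, where they were lower. After rescaling, over genes outside the IFN list that were neither histones nor of low level, the median fold was -0.27 on chromosome 16 (475 genes tested, 47.4% of them below -0.3) and between -0.19 (chromosome 5) and -0.04 (chromosome 7) on the others. On those, 26.2% (chromosome 7) to 38.5% (chromosome 21) of genes lay below -0.3. The difference was not tested.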
